A study of Rattus norvegicus with 12 samples.

Results

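The transcripts described here are those of ultraconserved elements, each measured on both strands. An array probe was taken as a member if its name begins with "uc." and it is no control, and the probes of an element were paired by the element's number. Every element had 1 probe for the + strand and 1 for the − strand, which gave 962 strands of the 38321 features on the array that are not controls. Each strand was printed as 3 spots. The elements are numbered from 1 to 483, with 2 numbers unused, and every one had both of its strands. The genome against which the array names a strand + or − is not given in the sources used here.

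The tissue was the thoracic aorta, taken from male rats, and its total RNA was hybridised to 12 Agilent arrays of 1 colour, 3 in each of 4 groups. The WKY group held Wistar-Kyoto rats, a strain with normal blood pressure that serves as control for the spontaneously hypertensive rat (SHR), and the SHR-C group held untreated SHRs. SHR-Bh rats received a high dose of BSJY, a mixture of 8 herbal granules, and SHR-Ca rats received captopril, an inhibitor of angiotensin-converting enzyme used against hypertension. All were dosed by gavage once daily for 16 weeks, WKY and SHR-C rats with water. The rats were 12 weeks old at the start, the characteristics of the samples put their age at 32 weeks, and the labels' protocol also says that the tissue was irradiated. Whether an array stands for 1 animal is not said in the labels, so a p-value here covers only the spread from array to array, which may be technical. Of 29 markers of smooth muscle, endothelium, fibroblasts, fat, macrophages, blood, striated muscle and neurons, 0 were among the 38 genes that could be named on the array, so the tissue could not be checked by its markers. In whole aorta, fewer cells of a type and less RNA per cell cannot be told apart.

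Ultraconserved elements are stretches of the genome that are identical between human, mouse and rat. Some lie inside exons of genes for RNA-processing proteins, others within introns or far from any gene, near regulators of development, where a number of them act as enhancers. Many are transcribed, and an element can be copied into RNA from either strand or from both, so that a + and a − transcript of 1 element are separate RNAs that are complementary over the element. Their transcripts have been studied mostly in cancers, where several are silenced by DNA methylation or interact with microRNAs, and in cultured heart muscle cells.

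A level is log2 of the processed intensity minus log2 of the 75th percentile of that array, so that 0 equals the percentile. A strand was counted as measured on an array where the scanner software called at least 50% of its spots well above background. The strand difference is the level of + minus the level of − on the same array. It is not a ratio of the 2 RNAs, since different probes bind with different strength, but that strength cancels when a strand difference is compared between groups. "Brighter" and "dimmer" below are said of probes. No spot was saturated on any array, and the 3 spots of a measured strand had a median SD of 0.106 to 0.168 within an array.

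Both strands of an element were measured far more often in the normotensive strain. On single arrays, 128, 187 and 228 elements had both strands measured in WKY, against 89, 56 and 42 in SHR-C. The BSJY group had 48, 20 and 55, and the captopril group 40, 48 and 50. Every WKY array lay above every SHR array. Elements measured on 1 strand only varied less, with 198 to 209 on a WKY array and 109 to 161 on an SHR array, and these were spread evenly over the strands: the + strand alone was measured for 50 to 108 elements and the − strand alone for 59 to 101. Elements with neither strand measured numbered 55 to 151 on WKY arrays and 231 to 352 on SHR arrays.

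**Figure D1:**
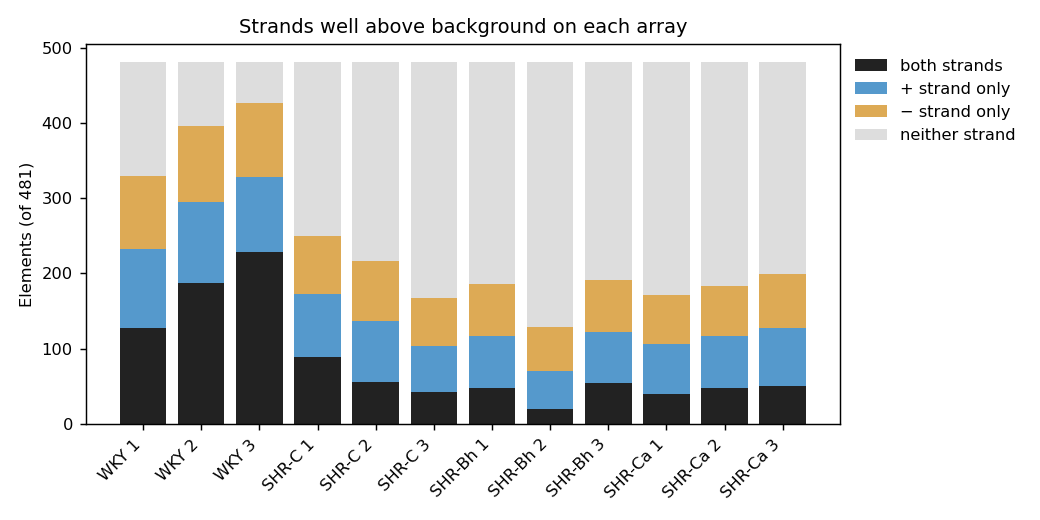
Number of elements (vertical axis) with both strands, the + strand only, the − strand only or neither strand well above background on each of the 12 arrays (horizontal axis). The segment for both strands is 128 to 228 elements high for WKY and 20 to 89 for the SHR arrays, the segment for the + strand only 100 to 108 against 50 to 84, and that for the − strand only 97 to 101 against 59 to 80.

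The same shift, though smaller, was seen in the other features of the array. Of the 962 strands, 47.6% to 68% were measured on a WKY array and 15.5% to 35.2% on an SHR array, and of the other features 74.6% to 88.4% and 52.1% to 69.4%. The WKY arrays were also brighter in all. The 75th percentile was an intensity of 182.0 to 384.8 on them and 109.8 to 190.2 on SHR arrays, and the median strand had an intensity of 10.4 to 21.4 against 1.65 to 4.20. All 3 WKY arrays, and no others, were scanned in 1 session, so that strain and scan session cannot be told apart.

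Held to all 3 arrays of a group, both strands were measured for 122 elements in WKY and 34 in SHR-C. The counts were 20 with BSJY and 33 with captopril. A single strand was measured for 201, 132, 106 and 125 elements. Of the 122 WKY pairs, 30 also had both strands in SHR-C, 26 kept the + strand alone, 28 the − strand alone and 38 had neither. Of the 201 elements with a single strand in WKY, 67 had the same strand alone in SHR-C and 127 had neither. Only 4 showed the other strand alone in SHR-C, uc.151, uc.226 and uc.276 with − in WKY and + in SHR-C, and uc.432 with the reverse. Alone means here that the partner strand was not measured on all 3 arrays, and it could be measured on some. uc.432− was measured on WKY 1 (-1.93), uc.226− on SHR-C 1 (-2.37) and uc.151+ on part of the WKY arrays. The 4 elements were named after their values were seen, and the switch was not tested.

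At the extremes, 18 elements had both strands measured on all 12 arrays and 45 had neither on any. For 20 elements 1 strand was measured on every array and the other on none, the + strand for 8 and the − strand for 12. The brightest of these was uc.465, whose − strand stood at 3.85, 4.52 and 4.74 in WKY, and 2.57, 3.01 and 2.60 in SHR-C. It was 1.99, 2.67 and 2.03 in SHR-Bh and 2.82, 2.21 and 2.14 in SHR-Ca, while its + strand lay between -7.22 and -5.37 throughout. All SHR arrays lay below all WKY arrays, and the − strand fell by 1.64 (SE 0.31, limma adjusted p = 8.3e-04) in SHR-C against WKY.

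uc.162, uc.10 and uc.448 were likewise measured on the − strand alone. uc.162− was 3.44, 4.12 and 3.70 in WKY and -0.57, 0.13 and 0.04 in SHR-C, a fall of 3.89 (SE 0.35, adjusted p = 5.1e-06). uc.10− was 1.88, 2.22 and 2.12 against -0.14, -0.64 and -0.78 (change -2.59, SE 0.24, adjusted p = 7.1e-06), and uc.448− was 0.94, 1.17 and 1.22 against -0.73, -0.48 and -0.78 (change -1.78, SE 0.28, adjusted p = 2.4e-04). In each, the WKY and SHR-C values did not overlap. The − strands of uc.459 and uc.483 did not pass the test (changes of -0.48 and -0.69, adjusted p = 0.34 and 0.072), though uc.459− did without SHR-C 1 (change -0.98, adjusted p = 0.027).

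Among elements measured on the + strand alone, the strains differed in both directions. uc.447+ was 0.08, -3.22 and -4.02 in WKY and 1.28, 2.30 and 2.07 in SHR-C, and rose by 4.27 (SE 1.00, adjusted p = 0.0033). The WKY arrays were far apart from each other on this strand, and without WKY 1 the rise was 5.50 (adjusted p = 2.8e-04). It reached 4.28 on SHR-Bh 1 against 1.62 and 1.15 on the other SHR-Bh arrays. uc.267+ was -1.64, -1.13 and -1.40 in WKY and -0.39, -0.34 and -0.16 in SHR-C and rose by 1.09 (SE 0.22, adjusted p = 0.0014). uc.426+ was -0.04, -0.01 and 0.44 in WKY and fell to -2.10, -1.79 and -1.93 (change -2.07, SE 0.30, adjusted p = 1.4e-04). uc.335+ overlapped between the strains and did not pass the test (change -1.05, adjusted p = 0.29).

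The brightest dimmer strand among the 18 elements measured on both strands everywhere was that of uc.420, with + at 5.02, 2.55 and 2.09 in WKY and 7.03, 2.09 and 3.33 in SHR-C, and − at 1.47, 2.03 and 1.96 in WKY and 2.66, 3.74 and 4.26 in SHR-C. In the treated groups its + strand was 1.66 to 2.96 and its − strand 3.97 to 4.48. Both strands of uc.414, uc.188, uc.456, uc.360, uc.48, uc.455 and uc.75, then of an element from the list of studied elements, and of uc.46 followed in that order. The levels of the 2 strands were only weakly related across elements: Spearman's rho between + and − was 0.10 to 0.15 on WKY arrays and 0.15 to 0.31 on SHR arrays, over at least 479 elements that share a library and its background.

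SHR-C 1, and to a lesser degree WKY 1 and SHR-Bh 1, stood apart from the other arrays of their group in part of their strands. On SHR-C 1, 75 strands lay at least 2 log2 units above both other SHR-C arrays, 22.1% of the strands measured there, against 4.51% of the other features. These belonged to 74 elements, 39 with the + strand alone, 34 with the − strand alone and 1 with both. Only 89 elements had both strands measured on SHR-C 1, which limits how many could have both. WKY 1 had 25 such high strands (5.46%, against 2.89% of other features) and SHR-Bh 1 had 20 (8.55%, against 3.51%), and in neither array did an element have both. The other 9 arrays had at most 1 such strand. With so few high strands on WKY 1 and SHR-Bh 1, an element with both was unlikely in any case. Its absence there does not show a pattern by strand. The margin of 2 log2 units was chosen after the levels had been seen. Only the high array had to measure the strand, so the other arrays could be near background. The shares are also not matched for level: on SHR-C 1 the median intensity was 3.90 for the strands and 26.3 for all features.

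**Figure D2:**
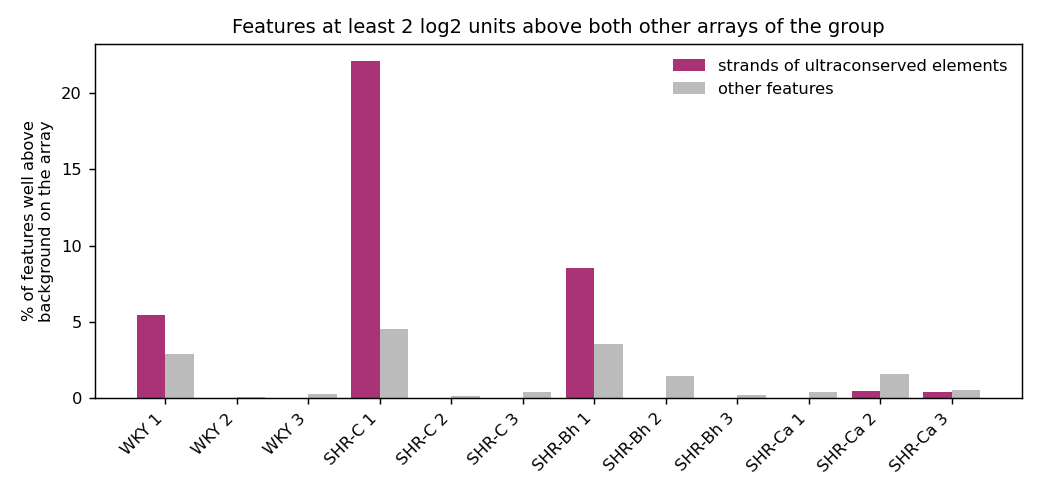
Share of features at least 2 log2 units above both other arrays of their group (vertical axis, percent of those well above background on that array), for the strands of ultraconserved elements and for the other features of each of the 12 arrays. SHR-C 1 reaches 22.1% for the strands and 4.51% for other features.

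In the 18 pairs measured on every array it was the dimmer probe that was high on SHR-C 1. Dimmer was judged by the mean over the 10 arrays other than WKY 1 and SHR-C 1. The dimmer strand was highest of the 9 SHR arrays on SHR-C 1 in 14 of 18 pairs, with a median of 2.14 above the other SHR-C arrays, while the brighter strand was highest there in 1 of 18, with a median of -0.11. On WKY 1 the dimmer strand was highest of its group in 13 of 18 pairs, by a median of 0.54.

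The + strand of uc.46 shows the pattern at its plainest, at 0.62 on SHR-C 1 and between -2.90 and -2.52 on the other SHR arrays, while its − strand was 3.33 on SHR-C 1 and 3.49 to 4.36 on the others. uc.471− was 0.39 on SHR-C 1 and -3.35 to -2.54 elsewhere in SHR, and uc.75+ was 1.36 against -2.44 to -1.02. SHR-C 1 was alone in its scan session, whereas WKY 1 shared its session with WKY 2 and 3, and what part the session has in the pattern was not tested.

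Setting SHR-C beside WKY asks what sets untreated hypertensive aorta apart from that of the normotensive strain. On the processed intensities, most tested strands of ultraconserved elements were called lower in SHR-C. With normexp correction, given below, most were not, and strain and scan session cannot be told apart. Of the 962 strands, 466 had been measured on all 3 arrays of at least 1 group and were tested, 247 of them through WKY alone and 21 through an SHR group without WKY. A strand that passed through WKY alone was bound to be higher there, so the counts over tested strands are a description. The same holds for the adjusted p-values of such strands given below. Of the 466, 312 were lower in SHR-C and 49 higher (limma, Benjamini-Hochberg adjusted over all 29618 features tested), against 39.8% of all features lower and 21.9% higher, 61.7% in all. The median change was -1.98 for the strands and -0.42 for all features. The strands were dimmer than the features as a whole, and the comparison was not matched for level.

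Fitted without a filter, 460 of all 962 strands (47.8%) were lower and 61 (6.34%) higher, against 36.6% and 17.1% of all features. Over the 184 strands measured on all WKY and all SHR-C arrays, 74 were lower and 36 higher, with a median change of -0.50. Of the 20607 features under the same filter 26.6% were lower and 26.7% higher, with a median of 0.06. The excess of lower strands depended on how background was removed: with normexp correction, which keeps dim values from falling near 0, 81 of the 466 were lower and 41 higher, against 15.7% and 20.9% of all features, and the median change was 0.07 against 0.18. Quantile normalization gave 248 lower and 65 higher of the 466 (67.2% in all), against 9116 and 8325 of all 29618 features (58.9%). The median changes were then -1.15 for the strands and -0.09 for all features.

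Of 133 elements with both strands tested, both fell in 58, both rose in 1, and 9 changed in opposite ways. Taken singly, the + strand fell in 82 of the 133 and rose in 17, and the − strand fell in 75 and rose in 14. With normexp correction both fell in 3, both rose in 3 and 1 was opposite, and of the 18 pairs measured on all 12 arrays 1 fell, 1 rose and 1 was opposite. In 88 of the 133 the 2 changes had the same sign, 77 of them negative. Across these elements the changes correlated with Pearson's r = 0.26 and Spearman's rho = 0.27, a description over elements that share arrays. The median gap between the changes of 2 strands was 1.38 log2 units. Of the 58 elements, 13 had neither strand measured on any SHR-C array, 32 had 1 strand and 13 had both. In 31 of them both strands had passed the filter through WKY alone.

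**Figure D3:**
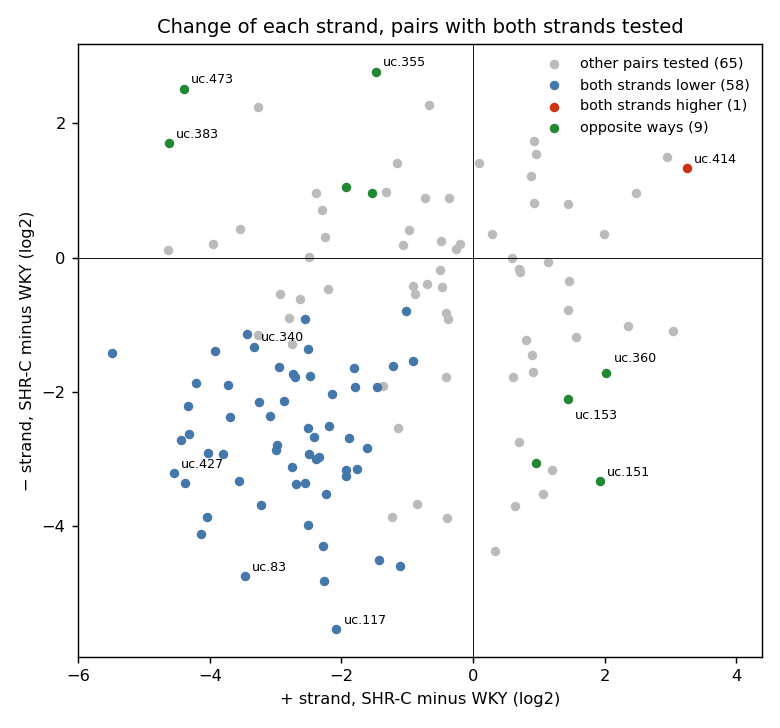
Change from WKY to SHR-C of the + strand (horizontal axis, log2) against that of the − strand (vertical axis, log2) for the 133 elements with both strands tested. 58 elements with both strands lower fill the lower left, uc.414 is the 1 element with both strands higher, and the 9 elements with strands changed in opposite ways lie in the upper left and lower right.

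By the mean of the fitted changes of its strands uc.467 came first, a place that rests on SHR values not well above background. Its + strand was -1.78, -1.67 and -1.94 in WKY and its − strand -2.11, -1.78 and -1.96, and neither was well above background on any SHR array. For such a strand the fold is a bound, set against the higher of the strand's own value and the lowest level of any measured feature on each dim array: uc.467+ was at least 8.07-fold lower in SHR-C (adjusted p = 1.8e-05) and uc.467− at least 7.23-fold lower (adjusted p = 3.8e-06). uc.482 and uc.228 had the same form. uc.482+ was at least 8.80-fold and uc.482− at least 4.22-fold lower, and uc.228+ at least 11.6-fold and uc.228− at least 4.23-fold lower. Neither strand of uc.467 or uc.482 passed the test with normexp correction, nor did uc.228− (adjusted p = 0.073 to 0.98), while uc.228+ did (0.0094). These bounds and those below therefore hold only for the processed intensities, with background subtracted. Over the settings, the changes of uc.482− and uc.228− came as near to no change as -0.028 and -0.0081 log2 units. Both strands of uc.467 had passed the filter through WKY alone, so a lower level in SHR-C followed from it, whatever the adjusted p.

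Both strands of uc.83 were lower under every alternative. Its − strand was -0.04, 0.61 and 0.46 in WKY and -4.10, -4.63 and -4.45 in SHR-C (change -4.74, SE 0.30, adjusted p = 7.5e-07), the last of these not well above background. Its + strand was -1.17, -0.94 and -1.17 in WKY and -3.69, -4.67 and -5.33 in SHR-C, where SHR-C 1 alone measured it, so that its change of -3.47 (SE 0.44, adjusted p = 5.3e-05) includes 2 values not well above background. The changes were -1.88 and -0.81 with normexp correction.

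In uc.427 and uc.117 both strands fell, but the strands lay at unlike heights. uc.427+ was 1.76, 2.36 and 2.18 in WKY and -2.52, -2.44 and -2.38 in SHR-C and was measured on every array (change -4.55, SE 0.22, adjusted p = 2.2e-07). uc.427− was -3.40 to -3.67 in WKY and not measured in SHR-C, at least 2.47-fold lower, and with normexp correction its change was 0.17 (adjusted p = 0.62). uc.117− was -0.96, -0.92 and -1.24 in WKY and not measured in SHR-C, at least 13.6-fold lower (adjusted p = 3.7e-07). uc.117+ was -1.50, -1.73 and -1.81 against -2.89, -4.02 and -4.36 (change -2.08, SE 0.35, adjusted p = 4.0e-04). Over the settings its change ranged from -2.51 to -0.32, with a call in 14 of 15 and a highest adjusted p of 0.29.

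uc.414 was the only element of the 133 with both strands higher in SHR-C. Its + strand was -1.19, -2.26 and -2.38 in WKY and 1.63, 1.26 and 1.01 in SHR-C, a rise of 3.25 (SE 0.62, adjusted p = 9.0e-04). Its − strand was -0.87, -0.67 and -0.47 against 0.56, 1.21 and 0.23, a rise of 1.33 (SE 0.32, adjusted p = 0.0036). The strains overlapped on neither strand, both strands passed the test under all 15 alternatives run for them, and the rises with normexp correction were 2.34 and 0.94. In the treated SHR groups uc.414+ ranged from 0.49 to 3.19 and uc.414− from 0.67 to 1.73, all above WKY.

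Opposite calls were made for uc.473, uc.151, uc.360, uc.383, uc.355, uc.153, uc.97, uc.213 and uc.472, with the + strand up in 4 and down in 5. Several rest on a strand whose call was often lost. Counting the main fit among the settings, uc.473− was called in 7 of 16, and uc.153− and uc.383− in 7 of 15 each. uc.360 was the 1 element with opposite calls under normexp correction as well (changes 1.27 and -1.61). Its + strand was -1.70, -3.68 and -3.86 in WKY and -2.04, -0.48 and -0.64 in SHR-C (change 2.03, SE 0.66, adjusted p = 0.019), so that WKY 1 lay above SHR-C 1. The rise was 2.72 without WKY 1 (adjusted p = 0.0032) and 2.52 without SHR-C 1 (adjusted p = 0.0088), and it did not pass when any of the other 4 arrays was left out (adjusted p = 0.065 to 0.076). Its − strand was 1.88, 2.63 and 2.80 against 0.38, 1.14 and 0.65 (change -1.71, SE 0.42, adjusted p = 0.0044), with no overlap.

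In uc.151, uc.383 and uc.355 a strand that was not measured in 1 of the strains moved against its partner. uc.151− was -3.36, -3.28 and -3.45 in WKY and not measured in SHR-C (at least 2.72-fold lower), and uc.151+ was -4.65, not well above background, -4.59 and -4.56 against -1.08, -3.51 and -3.42 (change 1.93, SE 0.53, adjusted p = 0.0079). Without SHR-C 1 that rise was 1.14 (adjusted p = 0.0035). uc.383+ was -2.12, -1.68 and -1.99 in WKY and not measured in SHR-C, at least 7.36-fold lower, and uc.383− was not measured in WKY and measured on SHR-C 2 alone, and its call was lost without WKY 1 (adjusted p = 0.064). uc.355− was likewise not measured in WKY and stood at -4.42, -3.17 and -3.52 in SHR-C (at least 2.67-fold higher, adjusted p = 0.022), while uc.355+ fell by 1.48 (adjusted p = 0.0015). With normexp correction the change of uc.151− turned to 0.16 (adjusted p = 0.65), and its call was lost. The count of opposite pairs was 16 without SHR-C 1 and 2 without WKY 2, SHR-C 2 or SHR-C 3.

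A change in the balance of strands was tested directly on the strand difference, in pairs with both strands measured on all 6 arrays of the 2 groups. Between SHR-C and WKY 30 pairs qualified, and 2 of them, 6.67%, passed (limma, adjusted over the 30 pairs on which the measure exists). The groups did not overlap in 9 of the 30, and 9 had an unadjusted p under 0.05. The brighter probe was + on all 6 arrays in 4 pairs and − in 13, differed between the strains in uc.340 and uc.414, and was mixed within a strain in 11.

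uc.473 had the largest change. Its + strand was 0.13, -0.04 and 0.18 in WKY and -4.50, -3.82 and -4.58 in SHR-C, and its − strand was 1.22, -2.19 and -3.10 in WKY and 1.24, 1.08 and 1.15 in SHR-C. The strand difference was therefore -1.09, 2.15 and 3.29 in WKY and -5.74, -4.90 and -5.73 in SHR-C, a change of -6.91 (SE 1.15, adjusted p = 0.023). The groups did not overlap, and WKY 1 was the WKY array nearest to SHR-C. In the treated groups it was -8.46 to -3.88, with the + strand not well above background on 4 of those 6 arrays. Without SHR-C 3, uc.473 and uc.340 did not pass (adjusted p = 0.078 and 0.086), and the 2 of 43 pairs that passed then were others.

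uc.340 was lower in SHR-C on both strands, more so on the + strand. uc.340+ was -0.47, -0.16 and -0.21 in WKY and -3.82, -3.33 and -3.69 in SHR-C (change -3.33, SE 0.28, adjusted p = 3.4e-06), and uc.340− was -0.58, -0.34 and -0.32 against -2.00, -1.37 and -1.84 (change -1.32, SE 0.28, adjusted p = 0.0018). Its strand difference was 0.12, 0.18 and 0.11 in WKY and -1.82, -1.96 and -1.85 in SHR-C, a change of -2.01 (SE 0.37, adjusted p = 0.023). In the treated groups it was -1.75 to -0.43, between WKY and SHR-C. Not every SHR-Bh array measured both strands, so that range includes values not well above background. Between SHR-Ca and SHR-C the strand difference did not pass the test (change 0.50, adjusted p = 0.62). Its SD over the SHR-C arrays, 0.08, was the lowest of the 30 pairs.

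**Figure D4:**
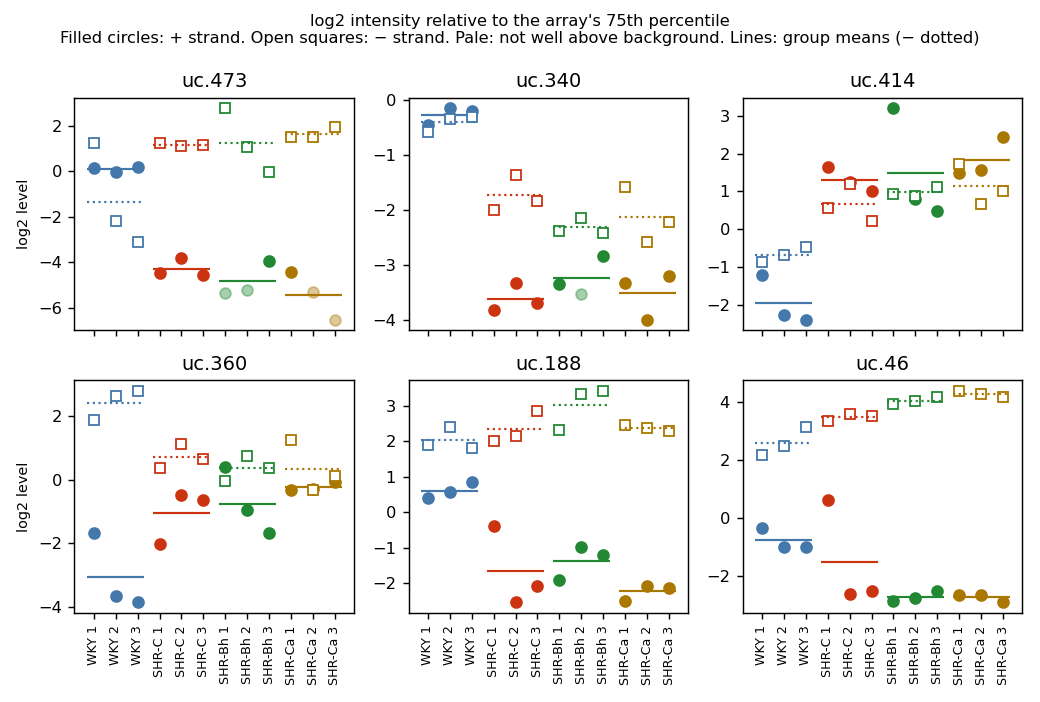
Level of the + strand (filled circles) and the − strand (open squares) of uc.473, uc.340, uc.414, uc.360, uc.188 and uc.46 on the 12 arrays (horizontal axis), in log2 units above or below the 75th percentile of its array (vertical axis, own scale per panel). Lines are group means (dotted for −) and pale symbols were not well above background. The strand difference of uc.473 falls from between -1.09 and 3.29 in WKY to between -5.74 and -4.90 in SHR-C, and uc.46+ is high on SHR-C 1 alone of the SHR arrays.

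How many pairs passed depended strongly on single arrays. Leaving out SHR-C 1, 15 of 32 pairs passed, and without WKY 1, 6 of 32. Without both, which was tried after these arrays had been seen to stand apart and leaves 2 arrays a group, 25 of 35 pairs passed, 11 with the difference higher in SHR-C and 14 lower, and 24 with normexp correction as well. Without WKY 2, WKY 3 or SHR-C 2, 0 passed, and 4 pairs each then had an unadjusted p under 0.05. uc.473 and uc.340 were among the pairs that passed without SHR-C 1, without WKY 1 and without both.

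Same-numbered arrays of WKY and SHR-C deviated from their group means with correlations of 0.57, 0.22 and 0.30 for numbers 1, 2 and 3. WKY 2 correlated more with SHR-C 3 (0.42) and WKY 3 more with SHR-C 2 (0.45), so the correlations set the arrays numbered 1 apart from the others and do not tell numbers 2 and 3 apart. With the replicate number as a block, 9 pairs passed: uc.473, uc.360, uc.256, uc.330, uc.153, uc.188, uc.340, uc.414 and uc.456. That fit gave every pair the same SE of 0.68, though the spread differed widely, with an SD of 0.03 for uc.48 in WKY and 3.29 for uc.420 in SHR-C. All 9 were among the 25 that passed without WKY 1 and SHR-C 1. Both settings bear on the arrays numbered 1, so the overlap is no independent support. With normexp correction on all arrays 0 pairs passed, though 9 had an unadjusted p under 0.05, and the changes of uc.473 and uc.340 were -3.35 and -0.62 (adjusted p = 0.10 and 0.14). With the scan session as a random block 0 passed and both had an adjusted p of 0.96.

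Among the pairs that passed only without SHR-C 1 or under the block, uc.188 and uc.456 are 2 for which that array lay apart. The strand difference of uc.188 was -1.51, -1.84 and -0.96 in WKY and -2.39, -4.69 and -4.92 in SHR-C, with SHR-C 1 between WKY and the rest, and -4.94 to -4.22 in the treated groups. The change was -2.56 (SE 0.78, adjusted p = 0.096) on all arrays and -3.36 (adjusted p = 0.0045) without SHR-C 1. For uc.456 it was -1.41, -0.88 and -1.81 in WKY, -1.07 on SHR-C 1, 1.42 and 1.67 on the other SHR-C arrays and 1.39 to 2.26 in the treated groups, and the change was 2.04 (adjusted p = 0.17) on all arrays and 2.91 (adjusted p = 0.0069) without SHR-C 1. On both pairs SHR-C 1 was the SHR array nearest to WKY.

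BSJY against untreated SHR asks what the herbal treatment changed, and no strand of an ultraconserved element passed the test. Of the 466 strands tested 0 were called by limma and 61 had an unadjusted p under 0.05. Of all 29618 features 28 were called, 0.0945%. No alternative setting called a strand. Of 19 pairs tested for the strand difference 0 passed (0%), and 1 had an unadjusted p under 0.05, uc.443. Its strand difference was -1.50, -0.68 and -0.45 in SHR-C and 0.35, 0.48 and 1.25 in SHR-Bh (change 1.57, SE 0.63, adjusted p = 0.45), so the groups did not overlap but the change did not pass.

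The next smallest p-values were those of uc.46, uc.75, uc.471 and uc.420, each a pair whose dimmer strand was high on SHR-C 1. Their changes were -1.78 for uc.46, -1.75 for uc.75, 1.69 for uc.471 and -2.26 for uc.420 (adjusted p = 0.45). Without SHR-C 1 the changes were -0.64, -0.62, 0.59 and -0.37, less than 50% of the change over all arrays in each. The smaller changes follow largely from leaving out the array on which these pairs lay apart, so they are a description and no test.

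Captopril against untreated SHR asks the same of the drug, and 2 strands were called lower in the main fit, uc.462+ and uc.138−. That is 2 of 466 strands (0.429%), near the 0.28% of all features (83 of 29618), so the count is no trait of these strands. Both calls were lost in several settings given below. In all, 72 strands had an unadjusted p under 0.05. uc.462+ was -0.37, -0.34 and -0.52 in SHR-C and -2.06, -3.30 and -2.49 in SHR-Ca, a change of -2.20 (SE 0.30, adjusted p = 0.013). uc.138− was -2.05, -1.67 and -2.03 in SHR-C and was not well above background on any SHR-Ca array, at least 6.96-fold lower (change as fitted -3.04, SE 0.33, adjusted p = 0.0039). The groups did not overlap on either strand.

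Both strands stood in SHR-C where they stood in WKY, and in SHR-Bh they were low as well. uc.462+ was -0.71, -0.61 and -0.94 in WKY and -1.83, -2.40 and -2.23 in SHR-Bh, where the change from SHR-C was -1.74 (adjusted p = 0.067). uc.138− was -1.60, -1.64 and -1.97 in WKY and -4.15, -3.91 and -4.00 in SHR-Bh, where only SHR-Bh 3 measured it (change -2.10, adjusted p = 0.050). Neither differed between SHR-C and WKY by the test (changes 0.34 and -0.18, adjusted p = 0.35 and 0.66). The 2 treatment comparisons share the SHR-C arrays.

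The opposite strands did not pass the test. uc.462− was 0.03, 0.57 and 0.49 in WKY and -3.65, -4.01 and -4.35 in SHR-C (change -4.37, SE 0.38, adjusted p = 4.5e-06), and changed by -0.11 in SHR-Ca (adjusted p = 0.93). uc.138+ was 0.64 on SHR-C 1 and -2.75 and -1.93 on SHR-C 2 and 3, and its change in SHR-Ca was -0.83 (adjusted p = 0.68). The SHR-C values of uc.462− lay near the level at which strands were no longer measured, and SHR-C 3 did not measure it. The difference between the strands in their response was fitted over the 133 elements with each strand measured in some group, and 0 passed. In that fit the strand difference changed with captopril by -2.09 in uc.462 (SE 0.48, adjusted p = 0.11) and by 2.22 in uc.138 (SE 0.91, adjusted p = 0.27), with unmeasured values included.

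**Figure D5:**
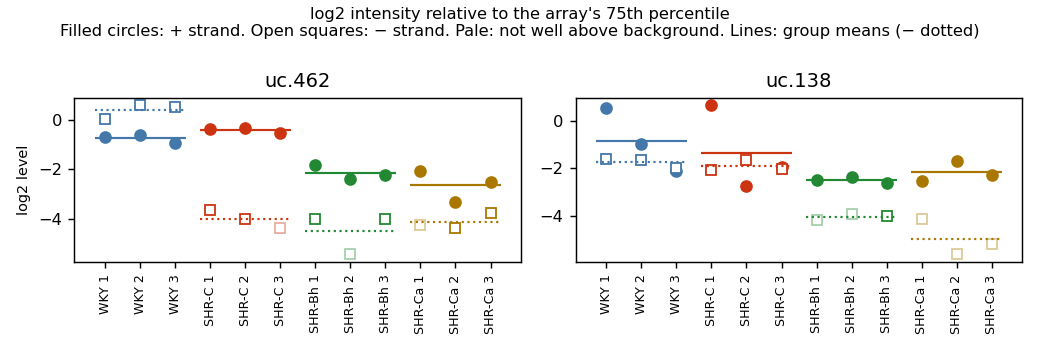
Level of the + strand (filled circles) and the − strand (open squares) of uc.462 and uc.138 on the 12 arrays (horizontal axis), in log2 units above or below the 75th percentile of its array (vertical axis). Lines are group means (dotted for −) and pale symbols were not well above background. uc.462+ lies between -0.94 and -0.34 in WKY and SHR-C and between -3.30 and -1.83 in the treated groups.

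The scan session held part of both groups here. Among the 4 arrays of session 3, SHR-C 2 and 3 and SHR-Ca 1 and 2, uc.462+ differed by -2.25 and uc.138− by -3.01 between SHR-Ca and SHR-C, as much as over all arrays. With the session as a block the adjusted p was 0.87 and 0.75, and that fit called 0 of all features. The calls were also lost when only the compared groups were fitted (adjusted p = 0.24 and 0.15) and with normexp correction (changes -1.01 and -0.68, adjusted p = 0.19 and 0.95). Without SHR-C 1 or SHR-C 2, uc.462+ did not pass (adjusted p = 0.065 and 0.056) and uc.138− did.

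Of 26 pairs tested for the strand difference between SHR-Ca and SHR-C 0 passed (0%), and 2 had an unadjusted p under 0.05. uc.443 again had the smallest p, with 0.30, 0.96 and 0.59 in SHR-Ca against -1.50, -0.68 and -0.45 in SHR-C (change 1.49, SE 0.65, adjusted p = 0.22). The others named were uc.46 (change -2.03), uc.420 (-2.82), uc.153 (2.04) and uc.471 (1.86), all at an adjusted p of 0.22. Without SHR-C 2, 5 of 26 pairs passed, and without SHR-C 1, 1 of 28. Why these counts differ was not tested.

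Between BSJY and captopril 0 of 466 strands passed the limma test, with 13 at an unadjusted p under 0.05, and 0 of all features did (0%), with 2126 at an unadjusted p under 0.05. Of 19 pairs 0 passed for the strand difference (0%). The smallest p was that of uc.420, whose strand difference was -1.87, -1.52 and -1.59 in SHR-Bh and -2.26, -2.09 and -2.31 in SHR-Ca (change 0.56, SE 0.18, adjusted p = 0.35). uc.455, uc.46, uc.48 and uc.141 followed with changes of 0.35, 0.25, 0.68 and -0.65 (adjusted p = 0.61). Neither comparison shows that the 2 treatments act alike.

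Elements on which functional work exists were looked up whatever their values. All 17 were on the array, and 21 of their 34 strands were tested. In SHR-C against WKY 15 fell and 1 rose, and 0 changed with either treatment. The 15 are 71.4% of the tested strands, beside 67% of all 466, and 12 of them had passed the filter through WKY alone. The median change was -2.41 as fitted and -1.42 with unmeasured strands at their bound, beside -1.98 and -1.44 over all tested strands. Both strands were measured in WKY for 7 of the 17 and in SHR-C for 3.

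Of the 6 elements studied in heart, vessel or their nerves, 9 of 12 strands were tested and 7 fell, 6 of which had passed the filter through WKY alone. For those 6 strands a lower level in SHR-C followed from the filter, so their adjusted p-values are a description. uc.40, which has been studied in heart development, fell on both strands. uc.40+ was -0.90, -0.36 and -0.49 in WKY and not measured in SHR-C, at least 18.7-fold lower (adjusted p = 1.3e-05), while uc.40− fell by 1.42 (SE 0.29, adjusted p = 0.0014). The other 4 elements of the list that fell did so on 5 strands, which were measured on all WKY arrays and on no SHR-C array, and were at least 2.55-fold to 7.16-fold lower. Among these was the element studied in cardiac hypertrophy, at the lower end of that range, and the element studied in differentiating heart muscle cells, at the upper end on its + strand and at least 3.83-fold lower on its − strand (adjusted p = 1.1e-05 and 1.9e-04).

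uc.48 was the exception in that list, measured on both strands on all 12 arrays. uc.48+, which has been studied in sensory and sympathetic ganglia of diabetic rats, was -0.53, -1.12 and -1.07 in WKY, 0.16 on SHR-C 1 and -1.49 and -2.18 on SHR-C 2 and 3, and uc.48− was -0.49, -1.10 and -1.0 against -0.16, -0.64 and -1.39. Neither strand passed the test between the strains (adjusted p = 0.71 and 0.74). Its strand difference changed by -0.40 on all arrays (adjusted p = 0.63) and by -0.78 without SHR-C 1 (SE 0.21, adjusted p = 0.035).

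The 3 elements known to be silenced by DNA methylation in several cancers, of which uc.160 is one, had 4 of 6 strands tested. All 4 had passed the filter through WKY alone, so a lower level in SHR-C followed from the filter. They were at least 2.12-fold to 3.06-fold lower in SHR-C, and 1 element was lower on both strands. uc.160 was measured on all WKY arrays on the − strand alone (-3.21, -3.32 and -3.06, at least 3.06-fold lower in SHR-C), and its + strand, at -3.58 on WKY 1, was not measured on WKY 2 and 3.

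Among the other 8 studied elements, 3 were measured on neither strand in any group, uc.8 among them. uc.73+ was -2.63, -2.60 and -2.61 in WKY and was not measured on any SHR array, at least 4.58-fold lower in SHR-C (adjusted p = 2.8e-06), and uc.73− was measured on no array. As uc.73+ passed through WKY alone, its lower level in SHR-C followed from the filter. uc.63− was -0.02, 0.03 and 0.27 in WKY and -1.13, -1.78 and -1.63 in SHR-C, a fall on arrays that all measured it (change -1.61, SE 0.30, adjusted p = 7.1e-04), while uc.63+ was measured on no array. The element described in hypoxic cells was the 1 studied element with a strand that rose: its + strand was -0.49, -0.22 and -0.08 in WKY and 0.49, 0.79 and 0.56 in SHR-C (change 0.88, SE 0.29, adjusted p = 0.021), and it did not pass without WKY 1 (change 0.77, adjusted p = 0.074). The element described in the renewal of the gut lining had a + strand of 2.77 to 3.83 on all 12 arrays that did not pass the test in any comparison, and a − strand that was 0.22 on SHR-C 1 and -2.50 to -1.37 on the others.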

How the data were processed

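Spot intensities came from the scanner files that the authors deposited. The processed intensity, already background-subtracted, and the spot flags were made by Agilent Feature Extraction 11.0.1.1, per the file headers. Spots marked as outliers were dropped, the log2 values of a probe's remaining spots were averaged, and log2 of the 75th percentile of the array was subtracted. A feature was tested if well above background on all 3 arrays of a group (29618 of 38321). One model over all 4 groups was fitted with limma 3.58.1 (R 4.3.3), with two-sided moderated tests and Benjamini-Hochberg adjustment over all features tested, at a threshold of 0.05. Strand differences were fitted on the 2 groups compared. The fits were also run on simulated data with known changes and independent noise. Those data held no arrays standing apart, background or scan sessions, so that run does not cover these traits of the real arrays.

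Normexp correction, with an offset of 50, used median signals, since mean signals were not used here. No element coordinates or sequences were used. The members, lists and tests were chosen with earlier results of these data known. By rule, the named elements were those with called strand differences (or the 5 smallest p), up to 6 elements each with both strands higher, both lower or opposite, up to 10 measured on both strands everywhere, up to 10 on 1 strand alone, and 17 studied elements. Others are said to be chosen after their values were seen or are members of a count.

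Arrays sharing a scan time were taken as a session: the WKY arrays made up session 1, SHR-C 1 alone session 2 and SHR-Bh 2 alone session 5. The first and second SHR-Ca arrays shared session 3 with SHR-C 2 and SHR-C 3, and SHR-Bh 1, SHR-Bh 3 and SHR-Ca 3 in session 4. Replicate numbers come from the sample titles, which do not say what they mean. Deviations of same-numbered arrays from their group means correlated with r = 0.22 to 0.57 between WKY and SHR-C and those of other-numbered arrays with r = -0.49 to 0.45, over features measured on all 12 arrays. Same-numbered SHR-C and SHR-Ca arrays gave r = -0.27 to -0.12. A low-dose BSJY group named in the labels was not analysed here.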

Additional observations from a re-analysis of the deposited data

How the results depend on the processing

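Of the counts recomputed under the alternatives, 207 stayed within 1.5 times the reported count and 47 did not. Of the changes of named strands and pairs, 584 kept their direction and side of the threshold, 63 lost their call, 4 gained one, 2 reversed and 5 values without a test moved by more than their spread. The reversed ones, with normexp correction, were uc.151− (0.16) and uc.427− (0.17) between SHR-C and WKY. Elements with both strands measured on at least 2 of 3 arrays numbered 190 in WKY, 58 in SHR-C and 41 in SHR-Bh, and on at least 1 of 3 arrays 234, 99, 62 and, in SHR-Ca, 59. Leaving out 1 array gave 123 to 185 in WKY and 20 to 41 in SHR-Bh.

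Between SHR-C and WKY 122 of 466 strands were called with normexp correction, 26.2% against 36.6% of all features. Of the 137 strands measured on all 12 arrays 80 were called, 58.4% against 53.7% of all features under that filter. Elements with both strands called the same way were 38 with quantile normalization, 6 with normexp, 118 without a filter, 2 of those measured on all 12 arrays and, leaving out arrays, 52 to 98, the highest without WKY 1 and SHR-C 1. Elements with opposite calls were 1 with normexp, 16 without a filter, 1 on all 12 arrays, 5 with the session as a random block and 2 to 16 leaving out 1 array. Between SHR-Ca and SHR-C the strands called were 0 with normexp, 0 with only those groups fitted, 0 with the session as a block, 1 on all 12 arrays and 1 to 2 leaving out 1 array.

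Strand differences called between SHR-C and WKY were 0 with normexp, 50 of 133 where each strand was measured in some group, 10 of 70 with at least 4 of 6 arrays, 0 with the session block, and 0 to 25 leaving out arrays. With normexp they were 4 without SHR-C 1 and 24 without both WKY 1 and SHR-C 1. The wide filter called 1 pair for BSJY against SHR-C and 1 against captopril, and leaving out 1 array gave 0 to 5 pairs for captopril against SHR-C. The replicate block gave 9 pairs between SHR-C and WKY and 0 in the other comparisons. The cause of these differences was not tested. Arrays without WKY 1 and SHR-C 1, and normexp together with left-out arrays, were chosen after seeing the data. Strands near background limit the precision: most folds of strands lost in SHR-C are bounds, which hold for the processed intensities alone.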

Other observations

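The strands that were high on 1 array of a group overlapped between arrays of different groups. WKY 1 and SHR-Bh 1 shared 7 such strands, 28.0% of the 25 on WKY 1 and 35.0% of the 20 on SHR-Bh 1. WKY 1 and SHR-C 1 also shared 7, which is 28.0% and 9.33% of their lists, and SHR-C 1 and SHR-Bh 1 shared 1. Among those high on SHR-Bh 1, chosen after their values were seen, uc.343+ was -1.04 on SHR-Bh 1 and -5.21 and -4.98 on SHR-Bh 2 and 3, and uc.276+ was -0.74 against -4.69 and -4.64. On the SHR-Ca arrays both were highest on SHR-Ca 3, at -2.08 and -1.71. The partner strands uc.343− and uc.276− were not well above background on any SHR-Bh array. SHR-Bh 1, SHR-Bh 3 and SHR-Ca 3 shared a scan session.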
